A study of Mus musculus with 2 samples.

Results

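Lipid-associated macrophage genes are a set of 9 genes, Apoe, Trem2, Spp1, Gpnmb, Fabp5, Lpl, Cd9, Cd36 and Abca1, that are used together to mark macrophages loaded with lipid. They were chosen by symbol, and all 9 were found among the 32285 genes of the files. Orthotopic tumors were grown in the pancreas of C57BL/6 mice from KPC cells (a pancreatic cancer line of the mouse) and were dissociated, red cells were removed and the remaining cells were sequenced without sorting. The FLOX group came from MCT1 fl/fl mice, in which Slc16a1, the gene of the lactate transporter MCT1, carries loxP sites. The MCT1-KO group came from mice in which tamoxifen-inducible Cre under the Col1a2 promoter (Col1a2-CreERT2) is meant to delete the floxed gene in pancreatic stellate cells (PSCs). Tamoxifen was given before the tumor cells, and a corn oil arm is also named. The sources used here do not say which of these the FLOX mouse received, nor whether it carried Cre. Each group is 1 library, and the number of mice in it is not given in the sources used here, so no p-value is given and every interval (95%) covers counting error only.

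The deleted gene was checked first. In PSC-like cells Slc16a1 stood at 25.5 CPM, which is unique molecules (UMIs) of the gene per 1000000 UMIs of the class, in the FLOX library and at 35.4 CPM in the other, from 57 and 112 UMIs. The MCT1-KO over FLOX ratio was 1.39 (1.00 to 1.95), so Slc16a1 RNA was not lower in this class, a reading of few UMIs. The second library is therefore called the library labelled MCT1-KO throughout. The paper reports lower MCT1 in PSCs of the knockout mice, in its own single-cell plots and by Western blot, PCR and immunofluorescence. Whether the UMIs counted here come from an intact gene copy was not tested.

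Macrophages that engulf dying cells take up more cholesterol and fatty acid than they need. Trem2 and Cd36 are surface receptors that sense or import lipid, Lpl frees fatty acids from lipoproteins, Fabp5 carries fatty acids inside the cell, and Abca1 with Apoe moves cholesterol out of it. Gpnmb is a lysosome-related membrane glycoprotein, Cd9 a tetraspanin of the plasma membrane and Spp1 (osteopontin) a secreted matrix protein, and all of them have also been described in cells that are not macrophages.

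The FLOX library held 8739 kept cells with a median of 4069 UMIs, and the library labelled MCT1-KO held 11689 with a median of 3706. Of these, 59 barcodes occurred in both libraries. Cell classes were rebuilt from clusters and named from markers that hold none of the 9 genes. Macrophage-like cells comprised 3 clusters with 2236 cells in the FLOX library and 1875 in the library labelled MCT1-KO, at median depths of 6293 and 5027 UMIs. The unnamed cluster 11 (315 and 347 cells, median 1102.5 UMIs) also scored highest on the macrophage list, with 10 macrophage markers detected. It was left out for its few UMIs and for having no marker among its leading genes. PSC-like cells numbered 236 and 422. Ductal-like cells, a weaker name since ductal markers led only 1 of its clusters, numbered 2592 and 3821. RNA outside cells was measured in barcodes with 10 to 100 UMIs and is called free RNA. The libraries differed in it: the 10 acinar markers summed to 325 CPM in FLOX free RNA and to 17110 CPM in the other.

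Promoter sequence is shown for the members whose start site lies beside a motif searched for. RefSeq promoter windows (250 bases before the start, build GRCm38.p6) were found for 7 of the 9 genes, in 10 windows. Fabp5 and Lpl had no entry. Both strands were searched for CACGTG, the E-box of the MiT/TFE and SREBP families, for its longer CLEAR form TCACGTGA, for TGANTCA (AP-1), for GAGGAAGT (PU.1) and for the DR4 element of liver X receptors. Every TCACGTGA also holds CACGTG. The 3 windows with a match are given 5′ to 3′ on the strand of the gene, with the motif in capitals: Trem2 at chr17:48346151-48346400 (+ strand), Abca1 at chr4:53159896-53160145 (- strand) and Spp1 at chr5:104434861-104435110 (+ strand).
Trem2: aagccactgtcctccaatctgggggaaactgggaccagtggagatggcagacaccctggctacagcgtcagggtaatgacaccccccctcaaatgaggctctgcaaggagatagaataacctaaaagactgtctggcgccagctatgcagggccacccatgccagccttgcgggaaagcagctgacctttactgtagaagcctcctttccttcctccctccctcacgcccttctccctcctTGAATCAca
Abca1: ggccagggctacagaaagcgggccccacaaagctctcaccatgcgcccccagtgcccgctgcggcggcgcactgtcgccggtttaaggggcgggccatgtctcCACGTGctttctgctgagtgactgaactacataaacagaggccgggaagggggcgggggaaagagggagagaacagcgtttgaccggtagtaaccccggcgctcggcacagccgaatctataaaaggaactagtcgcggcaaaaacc
Spp1: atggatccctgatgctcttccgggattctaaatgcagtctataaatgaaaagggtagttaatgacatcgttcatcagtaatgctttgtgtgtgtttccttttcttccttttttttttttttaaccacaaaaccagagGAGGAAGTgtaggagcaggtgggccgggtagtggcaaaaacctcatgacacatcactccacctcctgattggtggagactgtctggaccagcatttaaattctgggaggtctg
The match of Trem2 to the loose AP-1 form, TGAATCA, begins 9 bases before the start. Of the 32851 windows, 6.75% hold TGANTCA with any middle base. The E-box of Abca1 begins 147 bases before the start (6.02% of windows), and the PU.1 match of Spp1 113 bases before it (2.44%). CLEAR (0.785% of windows) and the exact DR4 string (0.0152%) matched no member window. That DR4 string is so rare that its absence says little on liver X receptor elements, and looser half-sites were not searched. These are matches of letters and no measure of binding.

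Across cell classes the 9 genes did not share a pattern. Apoe, Trem2 and Abca1 were highest in macrophage-like cells in both libraries, and these cells held 88.6% and 84.7% of all Apoe UMIs in kept cells (FLOX and the library labelled MCT1-KO), 83.5% and 81.5% of Trem2 UMIs, and 85.6% and 77.7% of Abca1 UMIs. Fabp5 was also mostly macrophage-like (75.8% and 71.1%). Only 6.9% and 3.4% of Spp1 UMIs and 9.3% and 2.8% of Cd9 UMIs lay there, so these genes were mostly read in other classes.

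Apoe, the main cholesterol-carrying apolipoprotein secreted by macrophages, stood at 30351 CPM in FLOX macrophage-like cells and at 36839 CPM in those of the library labelled MCT1-KO. The next class was plasma-like in FLOX (3308 CPM) and PSC-like in the other library (3590.4 CPM). Free RNA held 8770.4 and 7324 CPM of Apoe, above every class other than macrophage-like. After each cell was thinned to 1000 UMIs, 50.4% and 28.4% of T/NK-like cells had an Apoe UMI (85.4% and 61.6% unthinned), a class that should largely lack Apoe. A single Apoe UMI in a cell of another class was therefore not read as expression. How much of the Apoe in each other class is background was not tested. PSC-like cells, which are deeper, had 10 or more Apoe UMIs in 36.9% and 57.8% of cells, against 2.81% and 0.830% of T/NK-like cells.

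Trem2, a receptor for lipids and lipoproteins, stood at 571 and 547 CPM in macrophage-like cells. PSC-like cells came second in both libraries, at 293 CPM in FLOX and 144 CPM in the library labelled MCT1-KO. Free RNA stood at 155 and 102 CPM. At 1000 UMIs, 39.3% and 40.5% of macrophage-like cells had a Trem2 UMI (84.3% and 85.4% unthinned), against 2.78% and 0.682% of T/NK-like cells, whose median depth was lower (3002 and 2434.5 UMIs).

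Cd36, a scavenger receptor and fatty acid importer, was highest in endothelial-like cells, at 191 CPM in FLOX and 196 CPM in the library labelled MCT1-KO. Dendritic-like cells followed with 142 and 95.8 CPM, and the counting intervals of these classes overlapped in FLOX. Macrophage-like cells held 23.7 and 8.74 CPM, and free RNA 5.3 and 4.3 CPM. Neutrophil-like cells had no Cd36 UMI in either library. Lpl, the lipase that acts on circulating lipoproteins, was highest in PSC-like cells with 69.3 and 128 CPM. These cells held 60.1% and 79.7% of its UMIs, and no other class exceeded 5.8 CPM in either library.

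Fabp5 stood at 256 CPM in FLOX macrophage-like cells and 245 CPM in FLOX endothelial-like cells, whose counting intervals overlapped. In the library labelled MCT1-KO the same classes held 370.3 and 233 CPM, and the intervals were apart. Abca1, the cholesterol exporter, stood at 399.8 and 433 CPM in macrophage-like cells and at 199 and 204 CPM in endothelial-like cells, with 36.6 and 28.2 CPM in free RNA.

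Most Spp1 UMIs lay in ductal-like cells. Spp1 stood at 3434 CPM in FLOX ductal-like cells and 2417 CPM in those of the library labelled MCT1-KO, which held 81.8% and 83.8% of its UMIs. In macrophage-like cells it stood at 672 and 534 CPM, and in free RNA at 4093 and 2539 CPM, above both classes. The unnamed cluster 19 (36 and 63 cells), led by Tff1, Gkn1 and Gkn2, held 8787 and 8721 CPM, more than any named class. In macrophage-like cells the top 5% of cells held 40.3% and 49.95% of the class's Spp1 UMIs, with up to 270 and 130 UMIs in 1 cell. In T/NK-like cells the top 5% held 40.2% and 59.9%, with up to 66 and 84 UMIs. The unevenness was thus not particular to macrophage-like cells. Doublets were not removed, and whether the Spp1 of such cells is their own was not tested. Cd9 was highest in neutrophil-like cells (1017 and 731 CPM), and ductal-like cells held 555 and 642 CPM. Its macrophage-like level was 161 and 117 CPM and its free RNA level 552 and 545 CPM, close to the ductal-like level in FLOX.

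Gpnmb was sparse, at 21.8 and 25.9 CPM in macrophage-like cells from 320 and 261 UMIs. PSC-like cells held 11.6 CPM in FLOX and 109 CPM in the library labelled MCT1-KO, the highest class there. Gpnmb stood at 17.4 and 23.5 CPM in ductal-like cells and at 14.7 and 23.4 CPM in free RNA. With so few UMIs, its spread over cells could not be read.

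**Figure D1:**
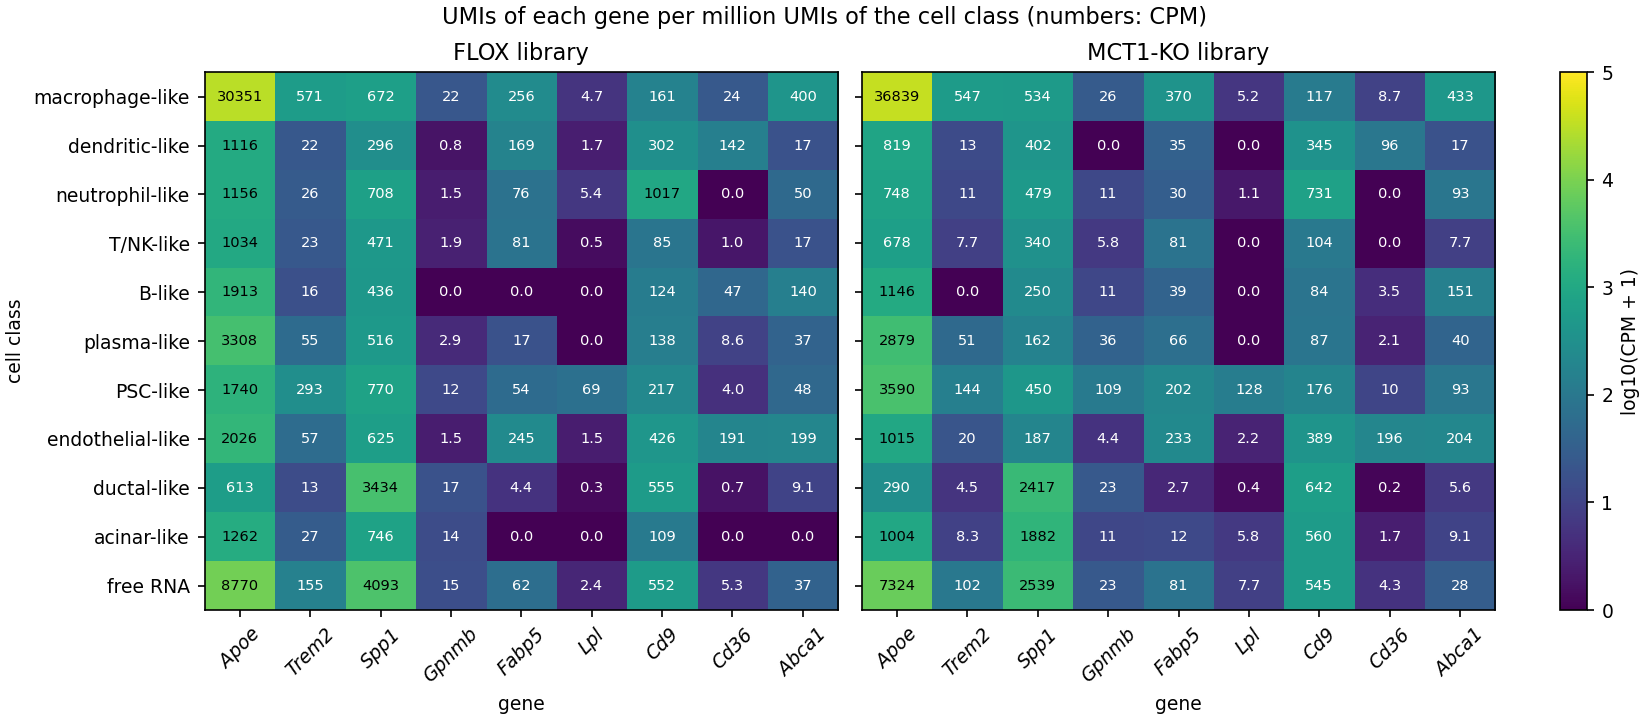
Level (CPM) for the 9 genes (columns) in 10 classes and in free RNA (rows), FLOX on the left and MCT1-KO on the right. Colour gives log10(CPM + 1) and each printed number is the CPM. Among the classes, Apoe, Trem2 and Abca1 peak in macrophage-like cells, Cd36 in endothelial-like (with an interval that overlaps dendritic-like cells in FLOX), Lpl in PSC-like, Cd9 in neutrophil-like and Spp1 in ductal-like cells. For Spp1 the free RNA row stands above every class shown.

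Between the libraries the macrophage-like levels of most members differed little. None of the 9 genes was past 1.5-fold higher in the library labelled MCT1-KO, where 6.47% of the 11131 genes with at least 50 UMIs were. Only Cd36 was past 1.5-fold higher in FLOX, 1 of 9 genes against 9.43% of all genes. The members' median log2 ratio was 0.12, beside 0.00 for all genes. Cd36 stood at 23.7 CPM in FLOX and 8.74 CPM in the library labelled MCT1-KO (348 and 88 UMIs), a ratio of 0.369 (0.288 to 0.467). At 1000 UMIs, 1.71% and 0.857% of macrophage-like cells had a Cd36 UMI (7.65% and 2.77% unthinned), shares too near that of 1 UMI to limit how many cells express it.

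Fabp5 was the member with the next largest ratio, at 256 CPM in FLOX and 370.3 CPM in the library labelled MCT1-KO (1.45, 1.38 to 1.51). Apoe was 1.21 times as high in the library labelled MCT1-KO (1.21 to 1.22), and Abca1 1.08 times (1.04 to 1.13). Cd9 (161 and 117 CPM) and Spp1 (672 and 534 CPM) were lower there, at ratios of 0.727 (0.677 to 0.780) and 0.796 (0.769 to 0.823). With the unnamed cluster 11 added to the class, a choice made after seeing the data, these ratios came to 0.944 and 0.937. Trem2 had a ratio of 0.957 (0.925 to 0.990), Gpnmb 1.19 (1.01 to 1.41) and Lpl 1.10 (0.752 to 1.60). Some directions turned with the processing. Trem2 came to 1.47 without the upper limit on genes, and Lpl to 0.821 and Abca1 to 0.850 with free RNA subtracted. That subtraction counted all acinar-marker UMIs of a class as free RNA and scaled the whole free-RNA profile to them. It thereby took a larger part of the class in FLOX than in the library labelled MCT1-KO. With 1 library a group, the spread between mice of such ratios is not known. The macrophage markers Csf1r and C1qa, which were among those that named the class, had ratios of 1.01 and 1.06. Other macrophage genes differed: Lyz2 had a ratio of 0.782 and Cd74 of 0.688. In cluster 1 Cx3cr1 stood at 604 and 268 CPM and F13a1 at 104 and 281 CPM, and in cluster 4 they stood at 331 and 127 CPM and at 273 and 599.5 CPM.

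Markers of other cells moved beside these values. In macrophage-like cells all 10 acinar markers were higher in the library labelled MCT1-KO, with a sum of 115 CPM in FLOX and 2325 CPM there. The 5 adipocyte markers summed to 0.340 and 4.57 CPM, with Plin1 at 0 in both libraries, and the 7 neutrophil markers to 288 and 190 CPM, with 3 of the 7 higher in the library labelled MCT1-KO. The 6 endothelial markers summed to 27.1 and 19.6 CPM (1 of 6 higher there) and the 8 dendritic markers to 8.03 and 10.1 CPM (4 of 8), and both classes hold more Cd36 than macrophage-like cells. In cells with no adipocyte-marker UMI the Cd36 ratio was 0.359 and the Fabp5 ratio 1.45. The part of RNA from these other cells in the members' ratios was not tested.

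The limit of 5000 genes per cell mattered. Barcodes above it were not clustered and were named by another rule, the class with the most markers detected (at least 3). The merged macrophage list holds 17 markers, against 10 ductal ones. By that rule 358 FLOX barcodes and 43 of the other library joined the macrophage-like class and brought 44.0% and 11.2% of its UMIs. In the added barcodes the 10 ductal markers summed to 1448 and 1634 CPM, near the 1789 and 2081 CPM of ductal-like cells and above the 167 and 179 CPM of the kept macrophage-like cells. Their macrophage markers summed to 1194 and 1864 CPM, against 18336 and 19179 CPM in the kept cells. With those barcodes 5 of the 9 genes were past 1.5-fold higher in the library labelled MCT1-KO and 3 higher in FLOX, beside 8.36% and 21.3% of 12213 genes.

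**Figure D2:**
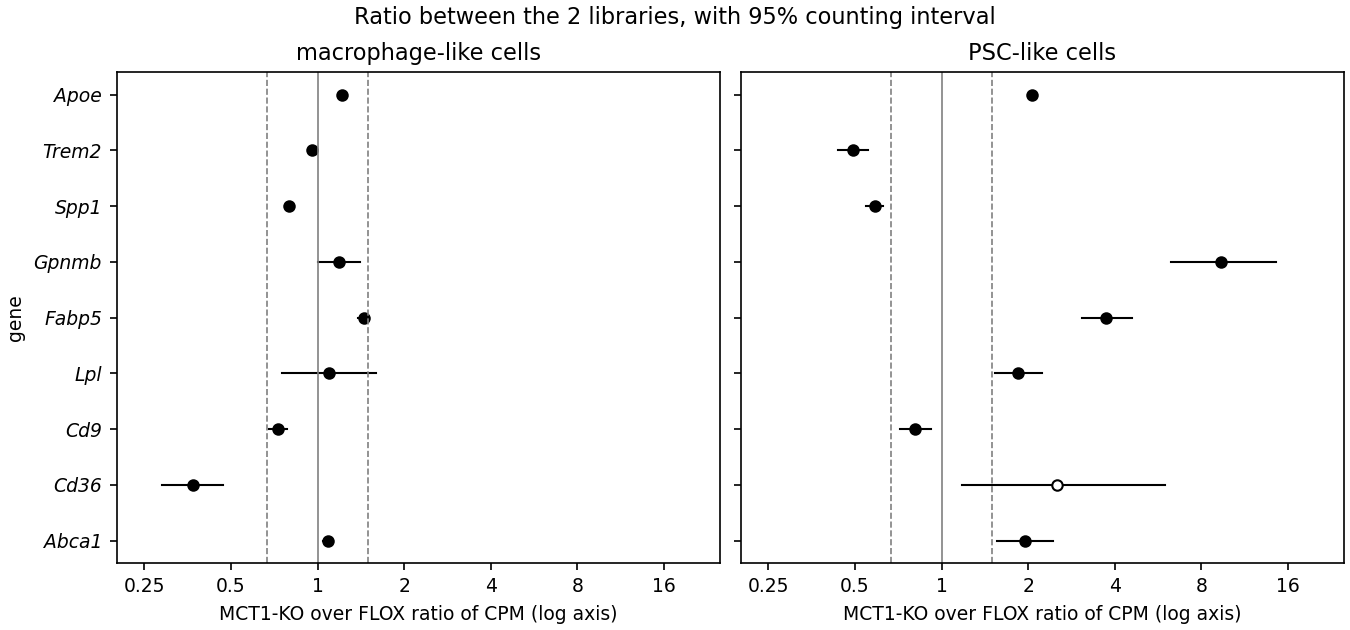
MCT1-KO over FLOX ratio of CPM (log axis) for the 9 genes in macrophage-like cells (left) and PSC-like cells (right). Points are ratios, bars are counting intervals of 95%, the solid line marks a ratio of 1, dashed lines mark 1.5-fold in either direction, and the open point has fewer than 50 UMIs. In macrophage-like cells only Cd36 lies past a dashed line, whereas 5 tested genes lie past the upper line and 2 past the lower line in PSC-like cells.

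Macrophage-like cells fell into 3 clusters. Cluster 1 was led by C1q genes and Mertk (1247 and 1033 cells), cluster 4 by Arg1, Il10 and F13a1 (759 and 712 cells), and cluster 14 by cycling genes such as Mki67 (230 and 130 cells). These clusters were built from the same cells, so the levels below are a description. Arg1 stood at 142 and 150.3 CPM in cluster 1 and at 1422 and 1209 CPM in cluster 4.

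The members split between the 2 large clusters. Spp1, Gpnmb, Fabp5, Lpl, Cd36 and Cd9 were higher in the Arg1-led cluster 4 in both libraries, beyond counting error. The share of all genes higher there was not computed, so this count is not read as particular to the members. In both clusters Spp1 and Cd9 stood below their free RNA levels (Spp1 4093 and 2539 CPM, Cd9 552 and 545 CPM). Cd36 stood 3.97 times (3.07 to 5.17) as high there as in cluster 1 in FLOX, and 2.30 times (1.45 to 3.70) in the library labelled MCT1-KO. The Fabp5 ratios were 2.21 and 1.25, those of Spp1 2.17 and 1.99, those of Gpnmb 3.19 and 2.55, and those of Lpl 2.63 and 2.33. Apoe went the other way, with cluster 4 at 0.711 and 0.650 of cluster 1. Cd9 stood at 1.11 (1.01 to 1.21) and 1.20 (1.06 to 1.36), and Abca1 at 0.872 and 0.989. Trem2 had no common direction, at 1.06 (1.01 to 1.11) in FLOX and 0.865 (0.817 to 0.916) in the library labelled MCT1-KO.

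**Figure D3:**
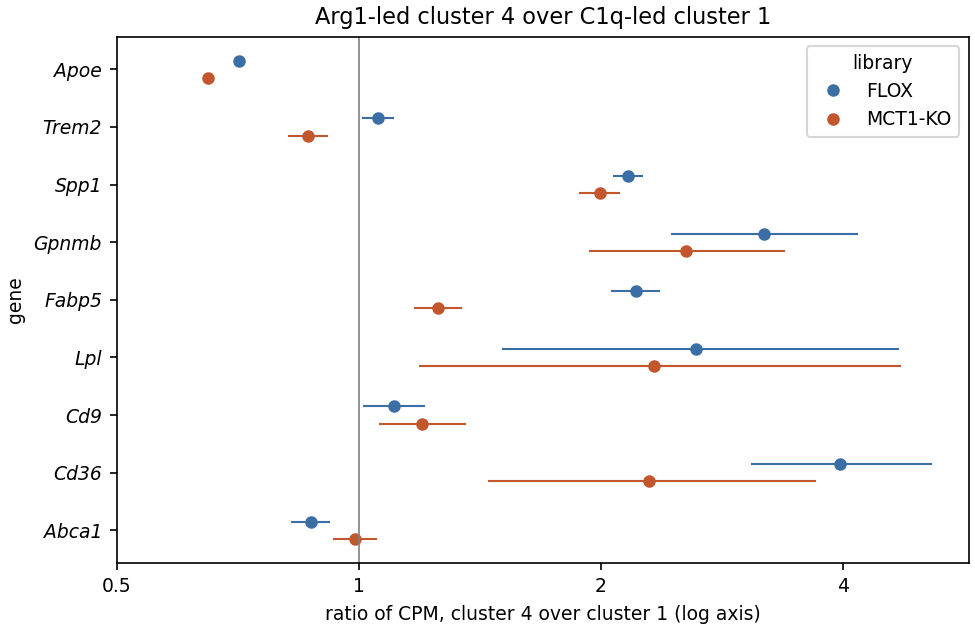
Ratio of CPM in the Arg1-led cluster 4 over that in the C1q-led cluster 1 (log axis) for the 9 genes, with 95% counting intervals as bars and 1 color per library. Cd36, Gpnmb, Lpl, Spp1, Fabp5 and Cd9 lie above 1 in both libraries and Apoe lies below 1 in both. The same ratio was not computed over all genes.

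The libraries were compared within each cluster. Cd36 stood at 11.1 CPM in FLOX and 6.03 CPM in the library labelled MCT1-KO in cluster 1, at 44.2 and 13.9 CPM in cluster 4 and at 16.9 and 3.61 CPM in cluster 14, where it rests on 36 and 4 UMIs. It was lower in the library labelled MCT1-KO in each of the 3. Fabp5 stood at 180.2 CPM in FLOX and 336 CPM in the library labelled MCT1-KO in cluster 1 and at 170 and 355 CPM in cluster 14, ratios of 1.86 and 2.09. In cluster 4 it stood at 399 and 421 CPM, a ratio of 1.06. Fabp5 was thus past 1.5-fold in clusters 1 and 14 and not in cluster 4, a difference that was not tested. Spp1 stood at 522 CPM in FLOX and 634 CPM in the library labelled MCT1-KO in cluster 14, the reverse of its order over the class, and Abca1 at 303 and 236 CPM there, also the reverse. Apoe was higher in the library labelled MCT1-KO in each cluster, by the smallest amount in cluster 14 (20313 and 21882 CPM).

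The genes were next counted together per cell, in cells with at least 1 UMI of Csf1r, the receptor for the macrophage growth factor M-CSF. There were 2778 such cells in FLOX (73.7% macrophage-like and 12.02% ductal-like) and 2340 in the library labelled MCT1-KO (70.8% and 12.4%). At 1000 UMIs per cell, which left out 86 and 78 shallower cells, 4 or more of the 9 genes were detected in 328 of 2692 cells (12.2%, exact interval 10.97 to 13.5%) and in 257 of 2262 cells (11.4%, 10.1 to 12.7%). These intervals overlapped. At least 3 genes were detected in 40.1% (38.3 to 42.0%) and 35.7% (33.7 to 37.7%) of cells and at least 2 in 77.6% (76.0 to 79.2%) and 72.9% (71.0 to 74.7%), and there the intervals were apart, with FLOX higher. No background was computed for 2 or 3 genes, and Apoe and Spp1, the members most abundant in free RNA, were also detected in more T/NK-like cells of FLOX (Apoe 50.4% and 28.4%, Spp1 33.7% and 18.9%). Without thinning, 73.6% and 67.6% of Csf1r-positive cells had 4 or more, so the share is set largely by depth (medians of 6575.5 and 5494.5 UMIs over all Csf1r-positive cells).

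Cells of other classes with no Csf1r UMI gave the background. Among T/NK-like cells, 1 of 479 in FLOX (0.209%) and 0 of 432 in the library labelled MCT1-KO had 4 or more genes at 1000 UMIs, the latter allowing a share of up to 0.694%. Their median depths were 3063 and 2534 UMIs. Among ductal-like cells the shares were 1.71% and 0.207%, and among PSC-like cells 2.45% and 4.13%. Endothelial-like cells gave 5.81% in FLOX, whose interval (1.91 to 13.05%, 86 cells) overlaps the Csf1r-positive one, and 2.91% in the library labelled MCT1-KO. Macrophage-like cells with no Csf1r UMI reached 14.1% and 10.7%, similar to the Csf1r-positive share. Within Csf1r-positive macrophage-like cells it was 14.8% and 14.04%, with 19.4% (16.5 to 22.6%) and 16.4% in cluster 4, 13.4% and 12.96% in cluster 1, and 7.94% and 10.4% in the cycling cluster 14.

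**Figure D4:**
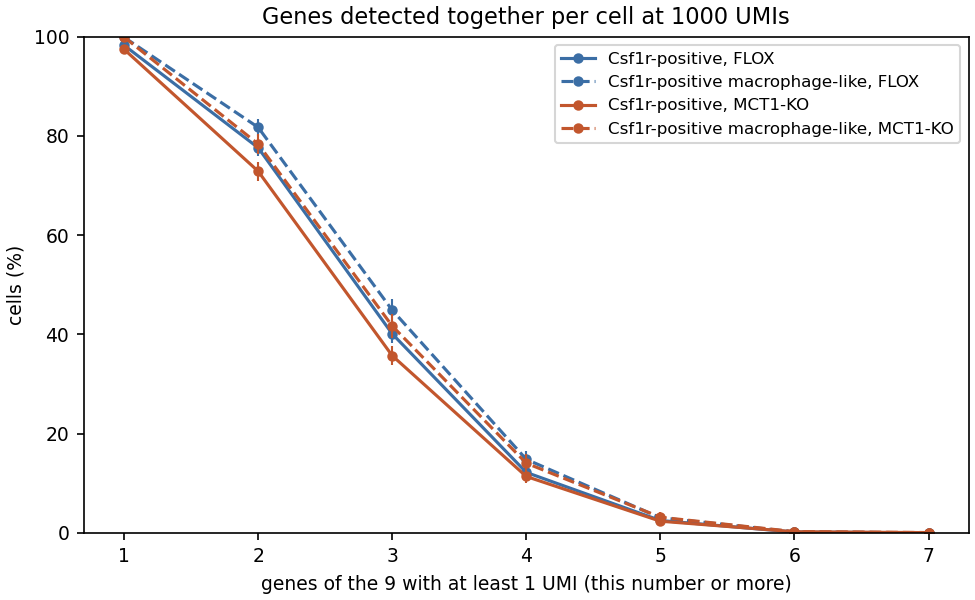
Percent of cells (y axis) in which at least the given number of the 9 genes (x axis) had 1 or more UMIs after thinning to 1000 UMIs per cell. Solid lines are all Csf1r-positive cells, dashed lines those that are macrophage-like, colors are the libraries and bars are exact 95% intervals. At 4 genes the solid lines stand at 12.2% (FLOX) and 11.4% (MCT1-KO).

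Pairs of genes were then compared with the number of cells expected if each gene were detected independently. In all Csf1r-positive cells, 7 of the 36 pairs were detected together more often than that in both libraries, beyond counting error, and 4 less often. For 12 of the 36 pairs the expected number was under 5 cells in at least 1 library. The pairs above were Apoe with Trem2 and with Abca1, Trem2 with Fabp5 and with Abca1, Fabp5 with Abca1 and with Gpnmb, and Spp1 with Cd9. Those below joined Trem2 or Abca1 with Spp1 or Cd9. These cells mix classes, and within the macrophage-like ones (2038 and 1652 cells) only Gpnmb with Fabp5 stayed above and no pair stayed below. Apoe was detected in 99.66% and 99.70% of the macrophage-like ones, so its pairs could hardly leave expectation. For 15 of the 36 pairs, Gpnmb with Fabp5 among them, the expected number there was under 5 cells in at least 1 library. Such pairs could not be read within the class.

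Gpnmb and Fabp5 were detected together in 12 macrophage-like cells of the FLOX library, where 3.80 were expected, 3.15 times as many (1.63 to 5.51). In the library labelled MCT1-KO they were together in 14 cells with 6.29 expected, 2.22 times (1.22 to 3.73). Both expectations are small, so the values describe few cells and are not read as an association. Trem2 with Cd9 stood at 0.775 and 0.634 of expectation in all Csf1r-positive cells and at 0.973 and 0.937 within macrophage-like ones.

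In PSC-like cells, the class in which the deletion is meant to occur, genes of the class itself differed between the libraries, with ratios of 13.1 for the chemokine Cxcl13, 0.648 for Col1a1 and 0.584 for Col1a2. Of the 8 members with at least 50 UMIs, 5 were past 1.5-fold higher in the library labelled MCT1-KO (9.85% of 8581 genes were) and 2 higher in FLOX (11.2% of genes). The members' median log2 ratio was 0.92, beside -0.03 for all genes. Apoe stood at 1739.8 CPM in FLOX and 3590.4 CPM in the library labelled MCT1-KO, a ratio of 2.06 (1.99 to 2.14). Both levels lie below those of free RNA (8770.4 and 7324 CPM), and subtraction of the free-RNA profile left no Apoe in FLOX and thus no ratio. Scaled to the acinar markers, it again took a larger part of the class in FLOX. Gpnmb stood at 11.6 and 109 CPM from 26 and 344 UMIs (9.36, 6.28 to 14.5) and Fabp5 at 54.1 and 202 CPM (3.74, 3.07 to 4.58). Both FLOX levels lie below FLOX free RNA (14.7 and 61.9 CPM). The class also holds the small cluster 23 (15 and 24 cells), led by Rgs5, Actg2 and Myh11. In cluster 12 alone, without it, Fabp5 stood at 31.0 and 193 CPM (6.22, 4.82 to 8.15).

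The sizes depended on the processing: Gpnmb came to 3.19 under a per-cell marker rule for the classes, and without the upper limit on genes Fabp5 came to 12.1, Apoe to 4.32, Abca1 to 4.90 and Lpl to 7.18. Barcodes above that limit were named singly by the most markers detected, and those added to PSC-like cells were not checked for other markers. Abca1 stood at 47.8 CPM in FLOX and 92.9 CPM in the library labelled MCT1-KO (1.94, 1.55 to 2.45), and Lpl at 69.3 and 128 CPM (1.85, 1.53 to 2.24). Trem2 was higher in FLOX, at 293 CPM against 144 CPM, a ratio of 0.492 (0.436 to 0.556), which reversed to 1.73 without the upper limit on genes. Spp1 was also higher in FLOX, at 769.6 against 449.9 CPM (0.585, 0.545 to 0.627), below its free RNA level in both libraries (4093 and 2539 CPM), and it too had no ratio once free RNA was subtracted. Cd9 stood at 217 and 176 CPM (0.811, 0.717 to 0.918), a direction that turned to 2.13 when the free-RNA profile was subtracted. Cd36 had 9 and 32 UMIs and was too sparse to compare. Leaving out cells with a Csf1r UMI gave ratios of 2.39 for Apoe, 0.409 for Trem2 and 8.21 for Gpnmb.

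Adipocyte RNA moved with the Lpl value. The 5 adipocyte markers (Adipoq, Plin1, Cfd, Retn, Car3) summed to 0.894 CPM in FLOX PSC-like cells, with Plin1, Cfd and Retn at 0, and to 1018 CPM in those of the library labelled MCT1-KO, where all 5 were higher. Of their 3221 UMIs there, 3206 lay in 14 cells with 5 or more such UMIs, in which Col1a1 stood at 13.8 CPM against 3855 CPM in the other cells. Without these 14 cells Lpl stood at 79.6 CPM in the library labelled MCT1-KO and its ratio was 1.15 (0.936 to 1.41), no longer past 1.5-fold. Gpnmb (9.55), Fabp5 (3.80), Apoe (2.00), Abca1 (1.80) and Trem2 (0.504) stayed past it. The 10 acinar markers summed to 103 and 1964 CPM in PSC-like cells, the 10 macrophage markers to 870.1 and 1075.5 CPM (9 of 10 higher in the library labelled MCT1-KO) and the 10 ductal markers to 238 and 355 CPM (7 of 10). Their part in these ratios was not tested.

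Within PSC-like cells the top 5% of cells held 36.6% and 39.9% of Trem2 UMIs, 44.1% and 37.4% of Apoe UMIs and 61.2% and 64.6% of Spp1 UMIs, so the RNA was uneven for all 3. Sets of cells with the most UMIs were described for Trem2, Gpnmb, Lpl and Fabp5. Cells with 5 or more Trem2 UMIs numbered 47 of 236 in FLOX (19.9%) and 32 of 422 in the library labelled MCT1-KO (7.58%), and held 79.2% and 51.5% of the class's Trem2 UMIs. Of these cells, 32 and 18 had no Csf1r UMI. As a set they held more macrophage RNA than the other PSC-like cells: Csf1r stood at 45.8 against 30.8 CPM in FLOX and at 93.4 against 30.2 CPM in the library labelled MCT1-KO, and the C1q genes at 979 against 567 CPM and at 1980 against 666 CPM. They were also deeper, at medians of 17034 and 14424 UMIs beside 8130 and 6920 for the class. Over both libraries together they were led by Defb3, Timp3, Calca, Wnt4 and Star, with all 98 Defb3 UMIs in FLOX cells. Cells with 3 or more Gpnmb UMIs numbered 1 in FLOX and 47 in the library labelled MCT1-KO, where they held 66.6% of Gpnmb UMIs. Against all other PSC-like cells of both libraries these cells were led by Mmp3, Ace, Ccl4, Cxcl12 and Smoc2, so genes that differ between the libraries can be among them. The single FLOX cell and 3 of the 47 were also in the Trem2 set. The Lpl set held 16 and 41 cells. Over both libraries it was led by Cfd, Retn, Cyp2e1 and Wfdc21, but Cfd, Retn and Cyp2e1 had no UMI in the 16 FLOX cells. Of the 41 cells, 10 were among the 14 adipocyte-marker cells and 8 were in the Gpnmb set. The Fabp5 set (6 and 27 cells) held 49.6% and 72.8% of the class's Fabp5 UMIs, with up to 23 and 89 in 1 cell. Ranked in the same pooled way, it was led by Krt7, Higd1b, Ednrb, Dmkn and Apold1. Of these, Krt7 had 1 UMI in its FLOX cells and 60 in the others, Dmkn 6 and 177, and Higd1b 44 and 47. In the Trem2 set were 1 and 6 of its cells. These sets were cut at a number of UMIs and are ranges, not types.

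Trem2 was also set against macrophage genes in each class. Macrophage-like cells held 1.07 and 1.02 Trem2 UMIs per Csf1r UMI and free RNA 1.67 and 1.56. PSC-like cells held 8.09 (6.41 to 10.3) in FLOX and 3.68 (3.01 to 4.52) in the library labelled MCT1-KO. Neutrophil-like cells held 0.415 and 0.159 and endothelial-like cells 1.73 and 2.25, so the ratio also varied among the other classes. Per 1000 UMIs of C1qa, C1qb and C1qc, the subunits of complement C1q, PSC-like cells had 409 and 169 Trem2 UMIs, macrophage-like cells 37.9 and 34.5, and free RNA 42.2 and 41.0. Ductal-like cells (48.1 and 41.0) and T/NK-like cells (44.3 and 31.3) were nearer to the macrophage-like value. The part of macrophage RNA in the Trem2 level of PSC-like cells was not tested.

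**Figure D5:**
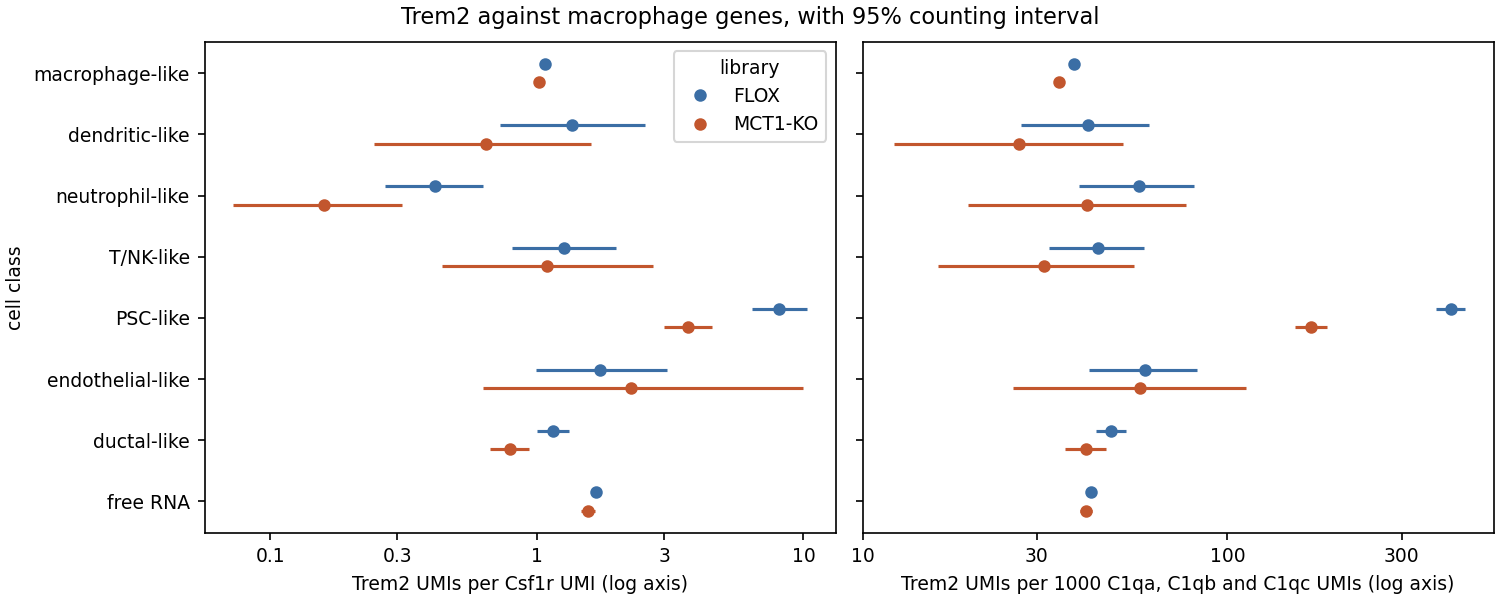
Trem2 UMIs per Csf1r UMI (left) and per 1000 UMIs of C1qa, C1qb and C1qc (right), both on log axes, by cell class and in free RNA, with 95% counting intervals as bars and 1 color per library. PSC-like cells lie to the right of the other classes and of free RNA in both libraries, at 8.09 and 3.68 per Csf1r UMI.

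Beyond the 9 genes, a list of 72 lipid handling genes was read in macrophage-like cells, 68 of them with at least 50 UMIs. Of these, 8 were past 1.5-fold higher in the library labelled MCT1-KO, 5 higher in FLOX and 55 within (6.47% and 9.43% of all genes were past it), with a median log2 ratio of 0.04 (all genes 0.00). The 12 tested genes of cholesterol efflux and sterol control were all within, among them Abcg1, a partner of Abca1 in export (74.7 and 76.6 CPM). The 4 genes of TREM2 signalling were within as well, with its adaptor Tyrobp at 2705 and 2804 CPM and the kinase Syk at a ratio of 1.36.

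Apolipoproteins held the highest ratio: Apoc4 stood at 13.7 CPM in FLOX and 44.5 CPM in the library labelled MCT1-KO (3.23, 2.73 to 3.84), and Apoc1 at 7.01 and 17.5 CPM. Among storage genes Fabp4, a fatty acid carrier, stood at 6.67 and 17.6 CPM and the triglyceride lipase Pnpla2 at 40.5 and 91.1 CPM, while G0s2, an inhibitor of that lipase, was the lowest of the list with 13.5 and 1.59 CPM (0.118, 0.0661 to 0.196). Acsl1, which activates fatty acids, stood at 139 and 52.4 CPM. Apoc1, Pnpla2 and Acsl1 were also leading genes of the 14 adipocyte-marker PSC-like cells. Of uptake receptors, Lrp1 (ratio 1.61) was higher in the library labelled MCT1-KO and Olr1 (0.639) in FLOX. Of 21 lysosome genes, Ctsl (511 and 829 CPM) was higher in the library labelled MCT1-KO and the acid lipase Lipa (90.9 and 56.4 CPM) in FLOX. G0s2 was also among the leading genes of the neutrophil-like cluster. The sum of the neutrophil markers was lower in macrophage-like cells of the library labelled MCT1-KO, as G0s2 and Acsl1 were. Of the 7 markers, 3 were higher there. The part of neutrophil RNA in the G0s2 and Acsl1 values was not tested. Mmp12, a macrophage elastase, stood at 34.3 and 12.7 CPM and S100a4 at 254 and 485.5 CPM.

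Genes with the most similar pattern were sought by the Pearson correlation of log2(CPM + 1) over 39 points, the clusters of each library with at least 50 cells, among 12639 genes. The points share libraries, depth and free RNA, so the values are descriptions. Apoe followed the complement genes C1qb, C1qc and C1qa (0.984, 0.983, 0.983), and Trem2 followed Pla2g15, Ms4a7 and Dab2 (0.932, 0.923, 0.916). Spp1 followed the epithelial genes Fermt1, Inava and Elf3 (0.927, 0.920, 0.918), and Cd36 the endothelial gene Vwf (0.870), BC028528 (0.839) and Atox1 (0.819).

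Fabp5 was most like Smpdl3a, Eif4e3 and Tent5a (0.925, 0.916, 0.911), Abca1 like Stard8, Man1c1 and Itga9 (0.923, 0.905, 0.904), and Cd9 like Il13ra1, Pdlim7 and Mapk13 (0.878, 0.876, 0.870). For Lpl the nearest were Ccl24, Gpx3 and Gas6 (0.865, 0.851, 0.841), and for Gpnmb Lrp1, Gaa and Naglu (0.731, 0.721, 0.716), the lowest values of the 9. Among the members the closest pairs were Apoe with Abca1 (0.88) and with Trem2 (0.87) and Fabp5 with Abca1 (0.87), whereas Fabp5 ran against Cd9 (-0.61) and Spp1 (-0.60).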

How the data were processed

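Single-cell 3' RNA-seq of 1 FLOX and 1 MCT1-KO library was analysed. Reads were trimmed (Fastp) and assigned to genes and barcodes (SeekOneTools) by the authors; the labels also list Seurat 4.0.0. The deposited values are raw counts of UMIs per gene and barcode, without normalization (177334432 and 151118092 UMIs). The labels name the SeekOne MM kit and the methods a 10x or SeekOne DD kit. Labels and methods name GRCh38, but the genes are mouse, so the build is not known.

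Barcodes with at least 500 UMIs, 200 to 5000 genes and at most 8% mitochondrial UMIs were kept; doublets were not removed. This left 61149689 and 81494894 UMIs, with 1402 and 2503 cells under 1000 UMIs. Cells were integrated and clustered in Seurat 5.3.0 (R 4.3.3; 2000 variable genes, 20 dimensions, resolution 0.8, 24 clusters). A class needed 3 of its markers in 10% of a cluster's cells and no more markers of another class among the 10 leading genes. A cluster with few UMIs and none of the class's markers among its leading genes was left unnamed. So was a cluster of another class with the macrophage list above the other cells. Macrophage and monocyte lists were merged. These thresholds were set after the clusters had been seen. UMIs were summed per library and class with Python 3.11.15, NumPy 2.4.6, pandas 2.3.3, SciPy 1.17.1 and scikit-learn 1.9.0 and scaled to the UMI total of that class (CPM). Intervals (95%) are exact Poisson for CPM, conditional exact binomial for ratios and Clopper-Pearson for shares. A zero count allows 3 counts. Ratios were read for genes with at least 50 UMIs in the class. Figures used matplotlib 3.10.9. The ratio method was tested on simulated data.

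Named genes were the members, the highest and lowest ratio of the lipid list with up to 4 genes of each role, the 3 genes most like each member, and markers of other cells that moved with a result. The values of 1 gene of the lipid list are not reported here. The members and lists were chosen with earlier results of these data known. Alternatives changed the cell filters, naming rule, resolution, doublets, free RNA, CPM total, fold, thinning depth and cells of the 2 classes; those that leave out adipocyte-marker cells, Csf1r-positive cells or clusters were chosen after seeing the data.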

Additional observations from a re-analysis of the deposited data

Results flagged for a closer look

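Each value below is an MCT1-KO over FLOX ratio of a member past 1 in one cell class and below 1 in another, beyond counting error. The difference between the classes was not tested, as each group is 1 library. Apoe had a ratio of 2.06 in PSC-like cells and 0.474 in ductal-like cells (612.9 and 290.2 CPM). It was also below 1 in endothelial-like (0.501), B-like (0.599), neutrophil-like (0.647) and T/NK-like cells (0.655), and free RNA held 8770.4 and 7324 CPM. In acinar-like cells the whole class was shifted, with 55.99% of 3195 genes past 1.5-fold higher in the library labelled MCT1-KO and a median log2 ratio of 0.72. There Spp1 had a ratio of 2.52 (55 and 2280 UMIs) beside 0.299 in endothelial-like cells (415 and 85 UMIs). Fabp5 had a ratio of 3.74 in PSC-like cells and 0.207 in dendritic-like cells, where it stood at 169 and 34.8 CPM (203 and 24 UMIs). Cd9 had a ratio of 5.16 in acinar-like cells, from 8 and 679 UMIs in 37 and 415 cells, and 0.635 in plasma-like cells (48 and 41 UMIs). In acinar-like cells Cd9 stood at 109 and 560 CPM, beside 552 and 545 CPM in free RNA. Spp1 stood at 746 and 1882 CPM in acinar-like cells, below its free RNA level (4093 and 2539 CPM). Abca1 had a ratio of 1.94 in PSC-like cells and 1.84 in neutrophil-like cells, and 0.617 in ductal-like cells (311 and 310 UMIs).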

How the results depend on the processing

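No paired analysis was possible because each group has 1 library, and for the same reason no library could be left out. Over 12 alternatives the Cd36 ratio in macrophage-like cells ran from 0.286 to 0.573 and stayed past 1.5-fold in all 12. The Fabp5 ratio there ran from 1.06 (cluster 4 alone) to 2.20 (no upper limit on genes). The cause of the changes below was not tested. Shares of all genes past the fold were computed only for the main processing and without the upper limit on genes. Without that limit they were 8.36% higher in the library labelled MCT1-KO and 21.3% higher in FLOX, in macrophage-like cells. Counts under the other settings have no such share beside them, so they are not read as results about the members or the list.

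Without the upper limit on genes, the members past 1.5-fold in macrophage-like cells were 5 higher in the library labelled MCT1-KO (0 with the limit) and 3 higher in FLOX (1), the lipid list had 19 (8) and 8 (5), the share of FLOX Csf1r-positive cells with 4 or more genes was 10.3% (12.2%), and Trem2 in PSC-like cells reversed to a ratio of 1.73. With a per-cell marker rule for the classes, macrophage-like members past it were 1 and 2 and PSC-like members higher in FLOX 1 (2), and Cd36 in PSC-like cells, which has few UMIs, reversed to 0.555. Leaving out the 8% highest doublet scores gave 2 macrophage-like members higher in FLOX. In cluster 1 alone 1 member was past it higher in the library labelled MCT1-KO, and in cluster 4 alone the lipid list had 10 genes higher in FLOX. Free-RNA subtraction, scaled to the acinar markers and so unequal between the libraries, gave 13 lipid list genes and 1 PSC-like member higher in FLOX. It left Spp1 and Cd9 in macrophage-like cells and Spp1 and Apoe in PSC-like cells without a value, since a library came to 0. At a fold of 2, PSC-like members numbered 3 and 1 and lipid list genes 4 and 3 (higher in the library labelled MCT1-KO and in FLOX). The share with 4 or more genes was 34.8% and 31.2% at 2000 UMIs, 73.6% and 67.6% without thinning, 0.483% and 0.442% where 2 UMIs were required, and 14.8% and 14.04% in macrophage-like cells. Of the counts and shares, 67 values kept within 1.5 times or their interval and 25 moved. Of single-gene ratios, 130 kept within their interval, 71 moved and 2 of those past 1.5-fold reversed. Ratios under 1.5-fold also changed direction: Cd9 in PSC-like cells came to 2.13 with free RNA subtracted, and in macrophage-like cells Abca1 came to 0.850 and Lpl to 0.821 with it, while Trem2 came to 1.47 without the upper limit on genes.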
